A study of Mus musculus with 168 samples.

Results

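Glutamate receptors and the proteins that travel with them were examined as a set of 32 genes, taken by name from a table of 39410 rows of RPKM (a read count scaled by the gene's length and the library's total, so that levels can be compared between genes). The set held the 4 AMPA receptor subunits (Gria1 to Gria4), 7 NMDA receptor subunits, 5 kainate receptor subunits, the delta receptor Grid1, 7 metabotropic receptors, 6 auxiliary subunits (Neto1, Neto2, Cnih2, Cnih3, Shisa6 and Shisa9) and the scaffold proteins Dlg4 and Grip1. The neurons came from the delta7 mouse of spinal muscular atrophy (SMA), in which shortage of the survival motor neuron protein leads to loss of motor neurons. Affected mice were Smn-/-/SMN2+/+/SMN∆7+/+ and their littermate controls Smn+/+/SMN2+/+/SMN∆7+/+, so both genotypes carried the human SMN2 and SMN∆7 transgenes and differed in mouse Smn. Neurons were cut by laser from frozen sections at postnatal days 2, 5 and 10, with roughly 150 cells to a tube, and sequenced from polyA RNA by Smart-seq2. Motor neurons were from the ocular (oculomotor and trochlear), facial, vagus and hypoglossal nuclei and the lumbar spinal cord, and the red nucleus gave neurons that are not motor neurons. Some ocular libraries held 1 of the 2 nuclei alone. These came from control mice at days 5 and 10 and SMA mice at day 10, and none from day 2, so nucleus make-up varied with day.

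AMPA receptors carry most fast excitatory transmission, and a receptor that contains the edited GluA2 subunit, the product of Gria2, passes little calcium. NMDA receptors need the GluN1 subunit encoded by Grin1 together with GluN2 or GluN3 subunits, and in much of the forebrain a juvenile supply of GluN2B gives way to GluN2A. Kainate and metabotropic receptors tune release and excitability, and cornichon (Cnih), Shisa and Neto proteins bind the receptors and alter their trafficking and gating. Motor neurons have long been studied for their sensitivity to glutamate.

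There were 168 libraries from 34 mice, 15 control and 19 SMA, which gave 160 samples once libraries of the same mouse and population were averaged. The mouse was the replicate. Control mice numbered 6 at day 2, 5 at day 5 and 4 at day 10, and SMA mice 9, 5 and 5, with 3 to 7 mice in each group of population, genotype and day. Depth, worked out from the steps of low RPKM values, ran from 0.342 to 16.3 M reads per library with a median of 5.89; the shallowest was the red nucleus library of control mouse 252 at day 10. Smn1 was at 4.32 to 63.3 RPKM in the 72 control samples and 0 to 4.24 in the 88 SMA samples, without overlap. Motor neuron markers (6 genes) summed to 659 to 1829 RPKM over the control samples of the 5 motor populations and to 29.9 to 100.5 in red nucleus, where Pou4f1, Slc17a6 and Slc17a7 had a median sum of 399.8 and a highest of 716 against at most 49.4 elsewhere. Markers of other cells were present in every population: those of astrocytes (12 genes) summed to 430 to 2833 RPKM and those of microglia (10 genes) to 2.92 to 106.2 in control samples. In such pools, fewer cells of a type and less RNA per cell cannot be told apart.

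Of the 32 genes, Grm6 and Grin3b stayed below the limit for testing populations, days and genotypes, which was an RPKM of at least 1 in as many samples as the smallest group of a fit (3); Grin3b passed it only in a fit pooled over all samples, described last. Grm6, a receptor known from retinal bipolar cells, was at 0 in 151 of 160 samples and reached 0.611 RPKM, and Grin3b, which was at 0 in most, reached 4.65. The remaining 30 were tested across populations. Over all 160 samples Grin1 had the highest median RPKM of the set (166.8), followed by Grin2b (75.3), Cnih2 (62.2), Gria2 (50.2) and Gria4 (39.5). Dlg4, which encodes the postsynaptic scaffold PSD-95, had a median of 1.81 RPKM; how the authors counted its reads is not given in the sources used here, so this level is uncertain.

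Promoters are shown for 4 members that were called between day 2 and day 10 in at least 2 populations and had an entry in the RefSeq promoter table (20 of the 32 matched): Grm3, Cnih2 and Cnih3, which fell, and Grin1, which rose. The build is GRCm38.p6, and each window runs from 250 bases before to 50 bases after the start given there, 5′ to 3′ on the gene's own strand. For Grm3 the start in the GENCODE annotation is another, chr5:9725170, which lies outside the window. The windows are Grm3 at chr5:9725303-9725602 (minus strand), Cnih2 at chr19:5098472-5098771 (minus), Cnih3 at chr1:181352378-181352677 (plus) and Grin1 at chr2:25319138-25319437 (minus). Capitals mark every match, on either strand, of the letters searched: GGGCGG for the GC box, which reads CCGCCC when it lies on the other strand, CACGTG for the E-box, TGACGTCA for the cyclic AMP response element and TATAAA for the TATA box.
Grm3: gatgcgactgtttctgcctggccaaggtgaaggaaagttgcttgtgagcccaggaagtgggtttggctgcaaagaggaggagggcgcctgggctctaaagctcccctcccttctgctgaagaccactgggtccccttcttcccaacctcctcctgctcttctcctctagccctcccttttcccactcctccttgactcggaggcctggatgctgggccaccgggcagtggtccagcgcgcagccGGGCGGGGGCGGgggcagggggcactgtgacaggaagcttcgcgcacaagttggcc
Cnih2: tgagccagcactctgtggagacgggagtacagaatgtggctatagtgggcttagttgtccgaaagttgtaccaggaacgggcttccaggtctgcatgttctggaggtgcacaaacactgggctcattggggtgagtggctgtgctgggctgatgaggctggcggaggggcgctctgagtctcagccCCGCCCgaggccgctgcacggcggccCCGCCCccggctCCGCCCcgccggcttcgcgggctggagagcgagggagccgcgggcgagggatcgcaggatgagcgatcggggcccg
Cnih3: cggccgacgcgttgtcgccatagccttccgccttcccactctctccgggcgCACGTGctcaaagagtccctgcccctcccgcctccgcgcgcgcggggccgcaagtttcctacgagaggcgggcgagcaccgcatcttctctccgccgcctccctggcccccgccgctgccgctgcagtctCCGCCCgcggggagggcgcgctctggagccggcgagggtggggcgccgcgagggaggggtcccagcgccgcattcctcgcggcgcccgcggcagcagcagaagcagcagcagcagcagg
Grin1: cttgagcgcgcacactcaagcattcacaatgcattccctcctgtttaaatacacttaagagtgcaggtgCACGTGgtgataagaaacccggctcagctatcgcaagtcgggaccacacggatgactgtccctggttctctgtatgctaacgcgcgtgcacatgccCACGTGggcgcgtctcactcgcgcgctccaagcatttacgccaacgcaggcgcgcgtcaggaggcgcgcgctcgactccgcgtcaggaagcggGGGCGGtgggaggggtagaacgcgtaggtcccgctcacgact
All 4 windows were rich in G and C, at 63.7% in Grm3, 67.3% in Cnih2, 75.3% in Cnih3 and 60.7% in Grin1, against a median of 52.7% over the 32851 promoters of the table. The GC box was found 2 times in Grm3, where the copies adjoin, 3 times in Cnih2 and once in each of the other 2, and 35.7% of all promoters hold it. CACGTG was found once in Cnih3 and 2 times in Grin1, against 7.15% of all promoters with a match. The cyclic AMP response element (1.79% of promoters) and the TATA box (13.6%) were found in none of the 4. These are matches of letters, not sites shown to be bound.

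The first comparison asked which receptor genes distinguish the 6 populations in control mice. Nearly the whole set did: 29 of the 30 tested genes differed among populations (F test in limma over the 72 control samples, adjusted p under 0.05), where 44.5% of all 19621 genes tested did. The exception was Dlg4. In the contrast of each population with the mean of the other 5, ocular neurons had 4 members higher and 11 lower, against 7.77% and 9.95% of all genes. Facial neurons had 8 higher and 2 lower (5.84% and 3.42% of all genes), vagus neurons 8 and 8 (15.5% and 12.2%), hypoglossal neurons 5 and 5 (7.11% and 3.68%), lumbar neurons 7 and 10 (9.59% and 8.8%), and red nucleus neurons 12 and 8 (8.82% and 13.1%). Of these 88 calls, 71 held in each of the 34 fits that left out 1 mouse. Differences below are on the log2(RPKM + 1) scale with the SE, and levels are RPKM over the control mice of all 3 days.

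**Figure D1:**
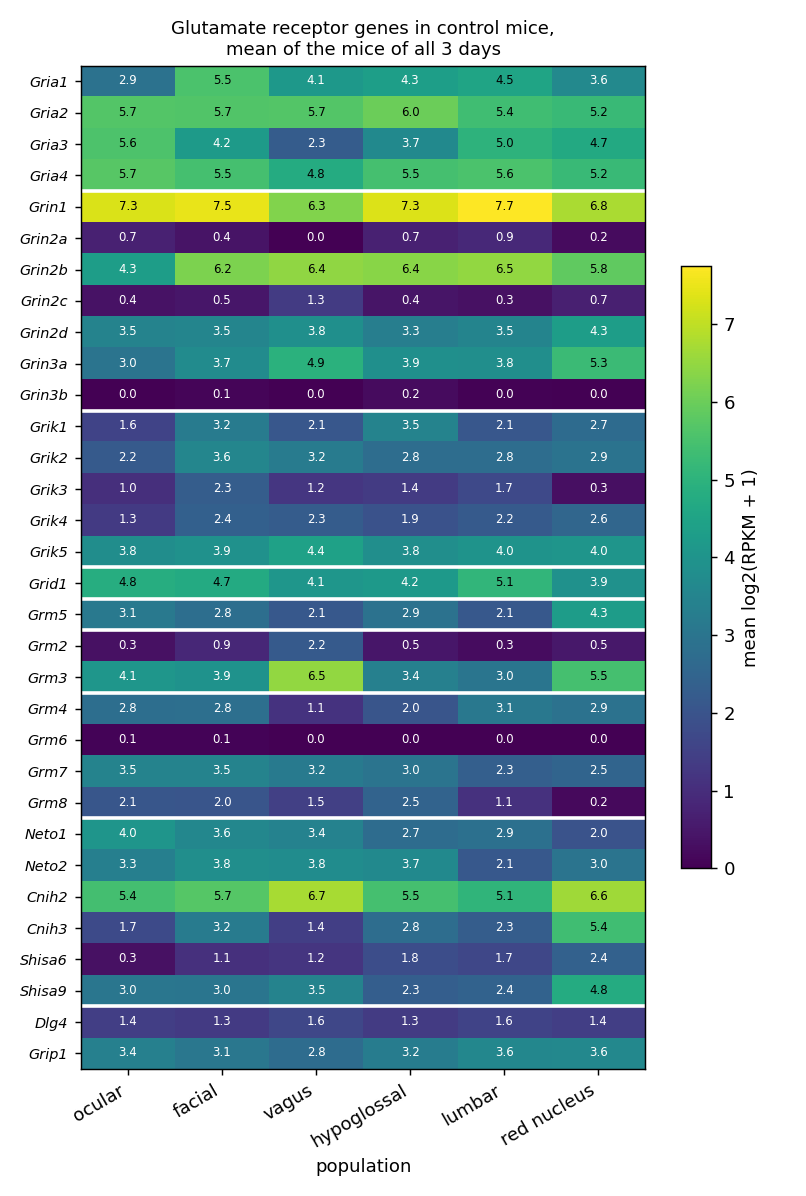
Mean log2(RPKM + 1) of the 32 genes (rows, in groups by receptor class) in the control mice of 6 populations (columns). Grin1, Grin2b, Gria2 and Cnih2 are bright in most columns, Grm3 is brightest in vagus (6.5) and Cnih3 in red nucleus (5.4), and Grm6 and Grin3b are dark throughout.

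Among the AMPA subunits, Gria3 and Gria1 separated the populations most. Gria3, which encodes GluA3, was at 34.2 to 70.7 RPKM in the 12 ocular control mice (median 43.6) and at 1.76 to 9.54 in the 11 vagus control mice (median 3.42), so these groups did not overlap. Relative to the other 5 populations it was higher by 1.61 (SE 0.14, adjusted p = 3.5e-15) in ocular and by 0.92 (SE 0.13, adjusted p = 1.32e-07) in lumbar neurons. It was lower in vagus, with a difference of −2.38 (SE 0.14, adjusted p = 3.62e-22), and in hypoglossal neurons, with one of −0.70 (SE 0.14, adjusted p = 7.89e-05). Gria1, which encodes GluA1, went the opposite way in ocular neurons, at 1.96 to 13.1 RPKM (median 5.31). Its highest levels were in the 13 facial control mice, at 35.4 to 76.9 RPKM (median 43.8), all above the highest ocular mouse. The facial difference was 1.64 (SE 0.15, adjusted p = 1e-13) and the ocular difference −1.54 (SE 0.15, adjusted p = 1.34e-12).

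Gria2 and Gria4 varied less. Gria2 was highest in hypoglossal neurons (median 70.0 RPKM, range 42.8 to 84.4; difference 0.48, SE 0.08), and lower in lumbar (−0.28, SE 0.07) and red nucleus neurons (−0.41, SE 0.08). Its population ranges overlapped. Gria4 was higher in ocular neurons (0.44, SE 0.09) and lower in vagus neurons (−0.73, SE 0.10), where it lay at 21.3 to 34.8 RPKM. Vagus neurons thus had low values of both Gria3 and Gria4 and a median of 50.1 RPKM for Gria2.

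The NMDA receptor genes set ocular neurons apart through Grin2b. Its level was 10.9 to 35.8 RPKM in ocular control mice (median 17.9), against 20.5 to 94.6 in red nucleus and no less than 46.8 in any mouse of the other 4 populations. The ocular difference was −1.97 (SE 0.12, adjusted p = 7.88e-22), while lumbar (0.69, SE 0.11), vagus (0.64, SE 0.12) and hypoglossal neurons (0.49, SE 0.12) were higher than the rest. Grin1, the obligatory subunit, was highest in lumbar neurons at 160 to 326 RPKM (median 207.7; difference 0.72, SE 0.13) and lowest in vagus neurons at 50 to 119.1 (median 74.6; difference −1.04, SE 0.14).

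Grin3a, whose GluN3A subunit lowers calcium entry, was high in red nucleus at 17.4 to 63.5 RPKM (difference 1.43, SE 0.13) and in vagus at 17.5 to 49.0 (1.02, SE 0.13). It was low in ocular neurons at 2.77 to 10.7 RPKM (−1.36, SE 0.13, adjusted p = 2.81e-13), below every red nucleus and vagus mouse. Grin2d was higher in red nucleus only (0.78, SE 0.16, median 20.6 RPKM) among the 6 contrasts. Grin2a and Grin2c were scarce: the median over the 160 samples was 0.298 RPKM for Grin2a and 0.269 for Grin2c. Grin2c was higher in vagus (0.81, SE 0.14), where it reached 7.04 RPKM.

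Of the kainate receptor genes, Grik1 (GluK1) was higher in hypoglossal (1.10, SE 0.19, adjusted p = 1.45e-05) and facial neurons (0.78, SE 0.19) and lower in ocular neurons (−1.17, SE 0.19). Its levels were 3.85 to 20.5 RPKM in hypoglossal and 0.077 to 5.88 in ocular control mice, ranges that overlap. Grik2 and Grik3 were both higher in facial neurons, by 0.81 (SE 0.17, adjusted p = 3.32e-04) and 1.15 (SE 0.15, adjusted p = 2.77e-08). Facial Grik3 was 1.94 to 7.35 RPKM, above the red nucleus range of 0.00862 to 1.07, where the contrast was −1.22 (SE 0.16). Grik4 was lower in ocular neurons (−0.96, SE 0.13). The most abundant kainate subunit was Grik5, at a median of 15.9 RPKM over all samples. The delta receptor Grid1, a synaptic organiser that binds cerebellins, was higher in lumbar neurons (0.77, SE 0.18, adjusted p = 9.64e-04), at 20.7 to 52 RPKM.

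Among the 7 metabotropic receptor genes, all but Grm6 were tested. Of these, 5 were called in lumbar neurons, where 9.59% of all genes were higher and 8.8% lower. In red nucleus 5 were called (8.82% and 13.1% of all genes) and in vagus 4 (15.5% and 12.2%). The vagus calls were Grm3 and Grm2, which were higher, and Grm4 and Grm5 (−0.85, SE 0.17), which were lower. Grm3, a group II receptor that inhibits adenylyl cyclase and that astrocytes also make, was at 57.7 to 137 RPKM in vagus control mice (median 84.9), 19.0 to 115.5 in red nucleus (median 36.6) and 2.14 to 14.9 in lumbar neurons (median 7.68). All vagus mice were above all lumbar, hypoglossal, facial and ocular mice. The vagus difference was 2.54 (SE 0.14, adjusted p = 1.95e-23), that of red nucleus 1.28 (SE 0.14), of hypoglossal neurons −1.18 (SE 0.14) and of lumbar neurons −1.66 (SE 0.13). Its group II partner Grm2 was likewise higher in vagus (1.75, SE 0.19, adjusted p = 1.74e-11), at 1.44 to 8.46 RPKM, while each of the other 5 populations had a median below 1.

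The group III receptors also inhibit adenylyl cyclase. Among them Grm4 was lower in vagus (−1.59, SE 0.18, adjusted p = 7.39e-11), at 0.158 to 3.52 RPKM, and higher in lumbar neurons (0.78, SE 0.17). Grm8 was higher in hypoglossal neurons (1.08, SE 0.24, adjusted p = 6.32e-04) and lower in red nucleus (−1.66, SE 0.25), where its median was 0. Grm7 was higher in ocular neurons (0.57, SE 0.14, adjusted p = 0.00206). Grm5, a group I receptor that acts through phospholipase C, was higher in red nucleus (1.67, SE 0.17, adjusted p = 1.62e-12), at 6.87 to 34.0 RPKM.

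Several auxiliary subunits differed in red nucleus neurons. Cnih3, a cornichon that slows AMPA receptor deactivation, was at 21.4 to 60.4 RPKM there (median 39.3) and at most 26.7 in any control motor neuron sample, with medians of 2.29 in ocular and 2.31 in vagus neurons. The difference of red nucleus from the other 5 was 3.11 (SE 0.22, adjusted p = 4.38e-18). Shisa9 (CKAMP44), an AMPA receptor partner, was at 15.6 to 38.9 RPKM in red nucleus, higher by 1.90 (SE 0.19, adjusted p = 1.78e-12), and lower in hypoglossal neurons (−1.02, SE 0.18). Cnih2, the more abundant cornichon, was high in vagus (1.09, SE 0.16) and red nucleus (1.0, SE 0.16) and low in lumbar neurons (−0.95, SE 0.15). Shisa6 was higher in red nucleus (1.22, SE 0.31) and lower in ocular neurons (−1.28, SE 0.30). The kainate receptor partner Neto1 was higher in ocular neurons at 11.3 to 27.0 RPKM (1.12, SE 0.18, adjusted p = 1.5e-06) and lower in red nucleus at 0.0482 to 10.4 (−1.27, SE 0.19), ranges that did not overlap. Neto2 was lower in lumbar neurons (−1.42, SE 0.14, adjusted p = 2.58e-12), at 0.954 to 7.98 RPKM.

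Other genes of the pathway were read from lists that hold no member. Of 35 AMPA receptor partners tested, 11 were higher and 8 lower in vagus (median log2 difference 0.01), 7 and 11 in red nucleus (−0.23), 7 and 11 in ocular neurons (−0.07), 7 and 4 in facial neurons, 9 and 3 in hypoglossal neurons, and 6 and 5 in lumbar neurons (0.09). Cacng2 (stargazin), a transmembrane AMPA receptor regulatory protein that carries AMPA receptors to the membrane, was lower in vagus (−1.82, SE 0.14) and higher in lumbar neurons (1.19, SE 0.13). Cacng3 was lower in ocular neurons (−1.96, SE 0.18). Of 25 postsynaptic scaffold genes, 9 were higher and 2 lower in lumbar neurons, and 6 were higher and 9 lower in vagus. Of 13 genes for neuronal glutamate handling, 8 were higher in ocular neurons and 1 lower, and in vagus none was higher and 8 were lower.

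Markers of other cells differed between the populations too. In vagus samples 3 of 4 inhibitory neuron markers (Gad1, Gad2 and Slc32a1, but not Slc6a5) and 5 of 10 microglia markers were higher and 8 of 10 oligodendrocyte markers lower. These 4 markers summed to 18.8 to 100.3 RPKM in vagus controls and to 0 to 59.7 in the controls of the other 5 populations. Astrocyte markers summed to 430 to 852 RPKM in vagus, 642 to 2142 in red nucleus and at least 1391 in the others, and in lumbar neurons 8 of 12 were higher. Of the same 12, vagus had 4 higher and 2 lower, and red nucleus none higher and 5 lower. The part of these cells in the differences of Grm3, Grm2 and the other members was not tested.

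The second comparison followed the receptor genes from day 2 to day 10 in control mice. Most changes were falls: 35 calls were made over the 6 populations, 27 of them falls and 8 rises, in 16 genes. In lumbar neurons 1 of 28 tested members rose and 10 fell, where 4.76% of all genes rose and 7.25% fell. The lumbar members had a median log2 difference of −0.58, against −0.10 for all genes. In ocular neurons 2 rose and 5 fell of 29 (4.38% and 3.64% of all genes), and in red nucleus 2 rose and 6 fell of 30 (5.72% and 5.42%). Facial neurons had 1 rise and 4 falls among 30 (2.6% and 2.76%) and hypoglossal neurons 2 and 2 among 30 (2.43% and 2.68%). In vagus neurons none of 29 was called, where 0.581% of all genes rose and 0.437% fell, and the day 2 group held 3 mice. The mice of day 2 and day 10 did not overlap in 31 of the 35 calls. The calls were made on these same values, so that count adds no support of its own. Its share over all called genes is not given here. Of the 35 calls, 20 held in every fit without 1 mouse. The numbers in the library labels followed the day: those of the day 10 control libraries all lay above those of the day 2 control libraries. What these numbers stand for is not given, and their part in the day calls was not tested.

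**Figure D2:**
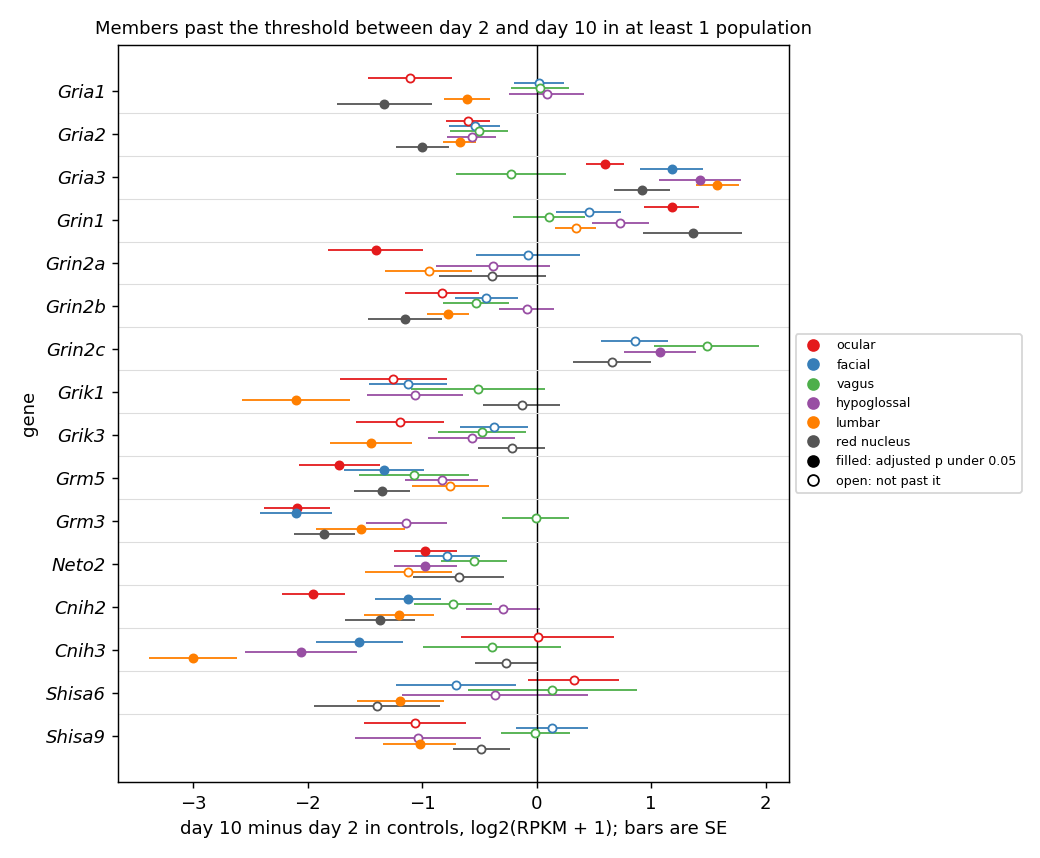
Day 10 minus day 2 in control mice, as log2(RPKM + 1) differences with SE bars, for the 16 members (rows) called in at least 1 of 6 populations (colours). Filled points passed an adjusted p of 0.05; Gria3, Grin1 and Grin2c are the rows with filled points to the right of 0, and lumbar Cnih3 lies farthest left at −3.00.

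Gria3 rose in 5 of the 6 populations. In lumbar neurons its level was 16.1, 16.5, 18.7 and 22.9 RPKM in the 4 mice at day 2, 25.1 to 39.2 in the 5 at day 5, and 49.4, 51, 57.4 and 72.2 in the 4 at day 10. Each day lay above the one before, and the difference of day 10 from day 2 was 1.58 (SE 0.19, adjusted p = 6.93e-07). In facial neurons Gria3 went from 9.79, 12.9, 13.1, 14.4 and 14.7 RPKM to 24.5, 28.4, 33.4 and 36.9 (1.18, SE 0.27, adjusted p = 0.00886). In hypoglossal neurons it went from 5.11, 7.13, 7.87 and 9.65 to 11.3, 16.0, 29.4 and 37.5 (1.43, SE 0.36, adjusted p = 0.017). Ocular neurons, which began high, rose from a mean of 41.3 ± 3.44 (SD, n = 4) to 63.3 ± 8.14 (n = 4; 0.60, SE 0.16, adjusted p = 0.0204 in limma). Red nucleus went from 14.7, 15.1, 16.8 and 29.0 to 34.3, 34.3, 35.8 and 36.7 (0.92, SE 0.24, adjusted p = 0.016). The 2 days did not overlap in any of the 5. The ocular call was lost without control mouse 244, 247, 252 or 254 (adjusted p 0.0515 to 0.0742) and the hypoglossal call without 240, 247 or 252 (0.0599 to 0.0754). The ocular call was also lost when only the ocular libraries that held both nuclei were used.

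Gria2 moved the other way, with estimates below 0 in all 6 populations. Lumbar mice had 41.6, 47.5, 50.1 and 53.8 RPKM at day 2 and 26.9, 27.0, 31.7 and 34.2 at day 10 (−0.67, SE 0.14, adjusted p = 0.00163). Red nucleus mice had 46.0, 50.3, 50.4 and 53.4 at day 2 and 21.0, 22.6, 24.7 and 31.0 at day 10 (−1.0, SE 0.23, adjusted p = 0.00612). These days did not overlap in either population. The other 4 estimates ran from −0.60 (ocular, adjusted p = 0.0517) to −0.50 (vagus, adjusted p = 0.414) and missed the threshold. Gria1 fell in lumbar neurons, from 21.2, 22.7, 23.5 and 32 RPKM to 10.7, 15.6, 18.2 and 20.2 (−0.61, SE 0.20, adjusted p = 0.0418), and in red nucleus, from 8.93, 13.1, 21.6 and 22.5 to 1.04, 6.28, 9.24 and 11.4 (−1.33, SE 0.41, adjusted p = 0.04), where the days overlapped. The lumbar call was lost without control mouse 20, 240, 244, 252 or 253 (adjusted p 0.0562 to 0.187), and the red nucleus call without 14, 28, 244, 247 or 252 (0.0554 to 0.134). Gria4 was called in no population.

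The make-up of AMPA receptor transcripts was described by the share of each subunit in their summed RPKM. Gria2 supplied 36.4 ± 2.42% (SD, n = 4) of the summed AMPA subunit RPKM in lumbar neurons at day 2 and 19.3 ± 2.35% (n = 4) at day 10, while Gria3 went from 14.0 ± 2.03% to 36.9 ± 4.93%. In red nucleus the Gria2 share went from 43.2 ± 4.43% to 21.9 ± 3.11%, in hypoglossal neurons from 52.6 ± 6.37% to 34.1 ± 3.52%, in facial neurons from 37.1 ± 4.25% to 24.1 ± 1.95%, in ocular neurons from 36.4 ± 2.83% to 23.8 ± 2.05% and in vagus neurons from 53.1 ± 4.36% to 45.9 ± 4.71% (n = 3 to 5). In the 5 populations other than vagus every day 10 mouse was below every day 2 mouse, which gave the smallest p that an exact two-sided permutation test allows there (0.0286, or 0.0159 in facial neurons). After adjustment over 24 tests of subunit shares the lowest value was 0.0623, so none passed. With groups of this size, a single test at its smallest possible p could not have passed that adjustment. These are shares of RNA and hold no information on RNA editing or on surface receptors.

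**Figure D3:**
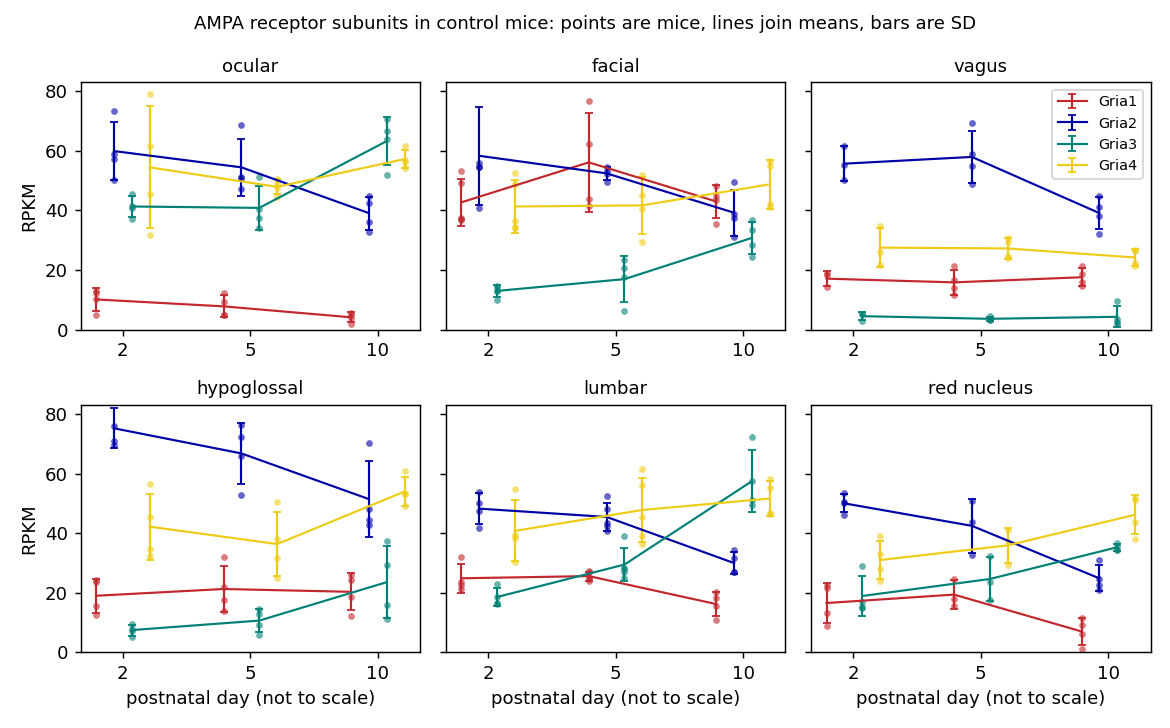
RPKM of Gria1 to Gria4 in control mice at postnatal days 2, 5 and 10 in 6 panels, 1 per population; points are mice, lines join means and bars are SD. Gria3 climbs in all panels but vagus, where it stays below 10 RPKM, and the Gria2 mean is lower at day 10 than at day 2 in all 6.

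For NMDA receptors the data show no rise of Grin2a at these ages. In ocular neurons Grin2a fell, from 0.518, 0.902, 3.12 and 4.93 RPKM at day 2 to 0.0463, 0.0548, 0.0837 and 0.197 at day 10 (−1.41, SE 0.42, adjusted p = 0.034), a call lost without control mouse 14, 244, 247, 252, 253 or 254 (0.0617 to 0.133). That call was also lost when only the ocular libraries that held both nuclei were used. The other tested populations had estimates of −0.94 (lumbar) to −0.08 (facial) with adjusted p of at least 0.113, and in vagus the gene was too low to test. Grin2b fell in lumbar neurons, from 112.5, 133, 137 and 160.5 RPKM to 60.4, 77.4, 77.7 and 103 (−0.78, SE 0.18, adjusted p = 0.00436). It fell in red nucleus from 87.5, 88.1, 92.8 and 94.6 to 20.5, 46.0, 49.1 and 57 (−1.15, SE 0.33, adjusted p = 0.0233), a call lost without mouse 244 or 247 (0.0501 and 0.0873). In both populations the days did not overlap. Grin2b still made up 69.8 ± 2.53% (SD, n = 4) of the GluN2 transcripts in red nucleus at day 10 and 86.1 ± 1.60% (n = 4) in lumbar neurons.

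Grin1 rose in ocular neurons, from 69.2, 82.3, 110 and 187.7 RPKM to 203.6, 223.3, 252 and 277 (1.18, SE 0.24, adjusted p = 0.00227), with every day 10 mouse above every day 2 mouse. In red nucleus it went from 53.3, 56.1, 78.3 and 88.2 to 76.4, 159.5, 190 and 404 (1.36, SE 0.44, adjusted p = 0.0448); the highest value was that of mouse 252, whose library was the shallowest, and the days overlapped. The red nucleus call was lost in 13 of 34 fits without 1 mouse, namely without control mouse 14, 28, 244, 252, 253 or 254 or SMA mouse 61, 77, 196, 199, 209, 249 or 258 (adjusted p 0.051 to 0.184, the highest without 252). Grin2c rose in hypoglossal neurons, from 0, 0, 0 and 0.201 RPKM to 0.681, 1.29, 1.37 and 1.62 (1.08, SE 0.31, adjusted p = 0.0397), a call lost without mouse 26, 28, 240, 244, 252, 253 or 254 (0.0558 to 0.0968). Its vagus estimate was larger at 1.49 (SE 0.46) with an adjusted p of 0.121.

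In control mice kainate receptor genes were called only in lumbar neurons, and the difference of these falls from the other populations did not pass the F test described further on. Grik1 fell from 4.74, 5.76, 10.5 and 13.4 RPKM to 0.284, 1.08, 1.37 and 1.99 (−2.10, SE 0.47, adjusted p = 0.00273). Grik3 fell from 2.58, 3.86, 4.23 and 5.12 to 0.365, 0.37, 1.08 and 1.60 (−1.45, SE 0.35, adjusted p = 0.00572). Every day 10 mouse was below every day 2 mouse for both genes. Facial Grik1 was at 7.64 to 15.2 RPKM at day 2 and 3.62 to 5.58 at day 10, also without overlap, but was not called.

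Grm3 was called lower at day 10 in 4 populations, 3 of them motor. In ocular neurons it went from 23.4, 23.6, 30.1 and 36.8 RPKM at day 2 to 5.33, 5.33, 5.62 and 7.01 at day 10 (−2.09, SE 0.29, adjusted p = 2e-05). In facial neurons it went from 14.5, 23.3, 34.3, 35.7 and 38.3 to 2.84, 5.66, 6.65 and 9.05 (−2.10, SE 0.32, adjusted p = 8.82e-05), and in red nucleus from 72, 78.2, 95.1 and 115.5 to 19.0, 20.0, 27.2 and 31.0 (−1.85, SE 0.27, adjusted p = 6.38e-05). Those 3 populations had no overlap between the days. In lumbar neurons it went from 6.90, 13.4, 14.4 and 14.9 to 2.14, 2.19, 3.47 and 7.83 (−1.53, SE 0.39, adjusted p = 0.00748), where 1 mouse at day 10 overlapped with 1 at day 2. Hypoglossal neurons had 11.5 to 16.4 RPKM at day 2 and 4.94 to 7.04 at day 10, without overlap, but were not called. Vagus neurons had 59.9, 94.5 and 137 RPKM in 3 mice at day 2 and a median of 100.1 over 4 mice at day 10 (lowest 57.7), with overlap and no call. Grm5 fell in ocular neurons, from 10.1, 10.3, 16.7 and 23.6 to 1.72, 3.63, 4.22 and 6.00 (−1.72, SE 0.36, adjusted p = 0.00233), and in red nucleus, from 22.7, 25.6, 28.0 and 34.0 to 6.87, 10.2, 10.9 and 13.5 (−1.35, SE 0.24, adjusted p = 6.52e-04). In facial neurons it fell from a mean of 8.16 ± 2.84 (SD, n = 5) to 2.62 ± 1.02 (n = 4; −1.33, SE 0.35, adjusted p = 0.021 in limma), a call lost without control mouse 14 or 253 (0.0587 and 0.102).

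The cornichons fell with age in some populations, Cnih2 being called in 4 of the 6 and Cnih3 in 3. Lumbar Cnih3 had the largest difference of any member, from 8.04, 13.6, 14.4 and 15.7 RPKM at day 2, through 1.10, 2.87, 4.5, 6.98 and 7.23 at day 5, to 0.297, 0.525, 0.968 and 1.13 at day 10. The 3 days did not overlap, and day 10 minus day 2 was −3.00 (SE 0.38, adjusted p = 1.89e-06). It also fell in hypoglossal neurons, from 11.2, 13.4, 14.0 and 26.7 to 1.30, 2.82, 3.39 and 5.34 (−2.06, SE 0.49, adjusted p = 0.0104), and in facial neurons, from a mean of 13.5 ± 3.55 (SD, n = 5) to 4.03 ± 1.57 (n = 4; −1.55, SE 0.38, adjusted p = 0.0141 in limma). The facial call was lost without control mouse 252 (0.0658) and the hypoglossal call with a pseudocount of 0.1. In red nucleus, where Cnih3 was most abundant, the estimate was −0.27 and was not called.

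Cnih2 fell in ocular neurons from 65.2, 75.7, 82.2 and 98.4 RPKM to 10.5, 16.2, 24.2 and 37 (−1.95, SE 0.27, adjusted p = 2.23e-05). It fell in red nucleus from 106.8, 145, 158 and 168.6 to 37.6, 41.2, 71.5 and 80.7 (−1.37, SE 0.30, adjusted p = 0.00447) and in lumbar neurons from 34.7, 49.3, 54.6 and 57.3 to 16.2, 17.7, 23.4 and 25.8 (−1.20, SE 0.31, adjusted p = 0.0081). Those days did not overlap. In facial neurons it fell from a mean of 74.8 ± 22.2 (SD, n = 5) to 35 ± 16.4 (n = 4; −1.12, SE 0.28, adjusted p = 0.0167 in limma), with overlap, and the call was lost without control mouse 247 or 252 (0.0502 and 0.0997). Neto2 fell in ocular (−0.97, SE 0.27) and hypoglossal neurons (−0.97, SE 0.27). The ocular call was lost without control mouse 26, 244 or 252 (adjusted p 0.0504 to 0.105) and the hypoglossal call without 240, 244, 252, 253 or 254 (0.061 to 0.118). Shisa6 (−1.19, SE 0.38) and Shisa9 (−1.02, SE 0.32) fell in lumbar neurons. Shisa6 lost its call without control mouse 240, 244, 247 or 254 (0.0568 to 0.171) and Shisa9 without 20, 28, 240, 244, 247 or 254 (0.0502 to 0.17). Grip1 and Dlg4 were called in no population.

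The change from day 2 to day 10 differed among the 6 populations for 2 of the 30 members, against 3.57% of all genes (F test of population by day, limma). They were Grm3 (adjusted p = 0.00646) and Cnih3 (adjusted p = 0.00879). The Grm3 result was lost without control mouse 244 or 254 (0.0545 and 0.0691) and the Cnih3 result without 252 or 253 (0.0741 and 0.0691). With the mouse as a block, since mice gave several populations, these were 0.00499 and 0.00739, and Gria3 passed as well (0.0419, against 0.0525 without the block).

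**Figure D4:**
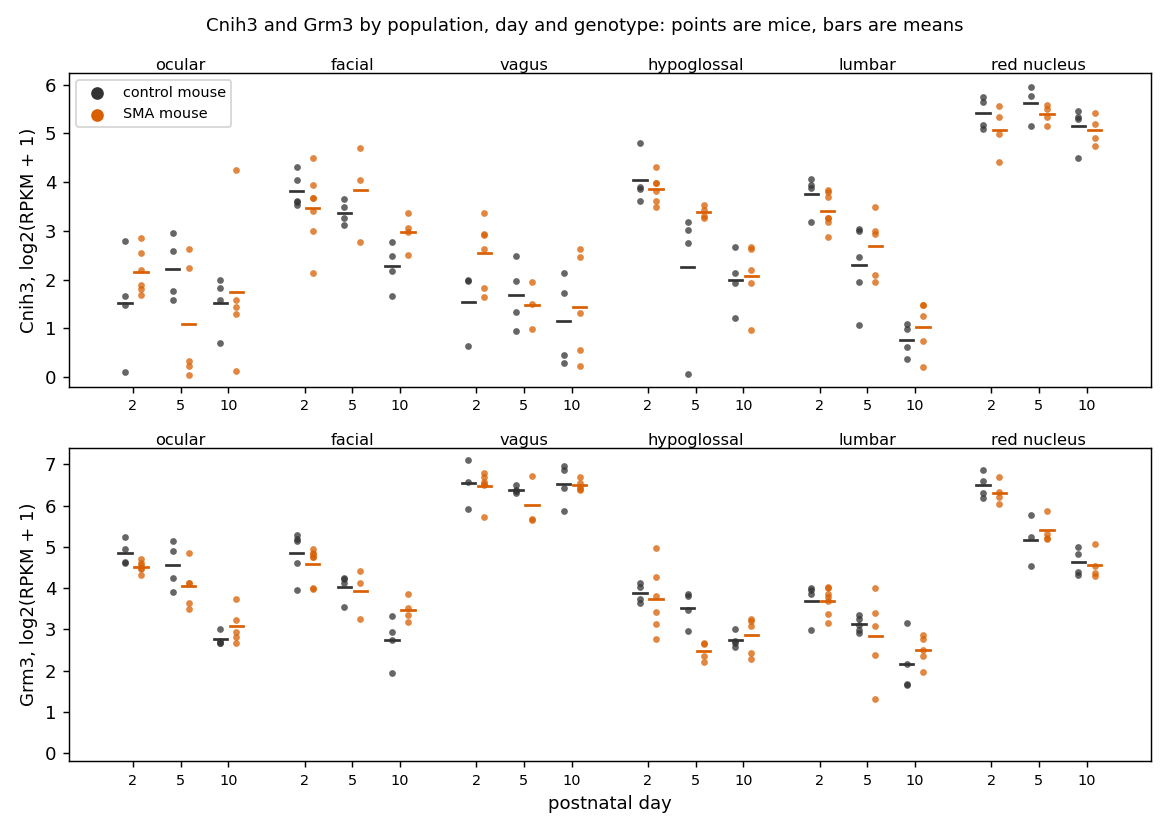
Cnih3 (upper) and Grm3 (lower) as log2(RPKM + 1) in every mouse, by population and postnatal day (x axis); dark points are control and orange points SMA mice, and short bars are means. Cnih3 descends from day 2 to day 10 in facial, hypoglossal and lumbar but not red nucleus neurons, and the vagus Grm3 points of day 2 and day 10 overlap.

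Within the interval, few changes were called early. Between day 2 and day 5 the calls among members were lumbar Grin2b (−0.91, SE 0.17, adjusted p = 0.00468) and lumbar Cnih3 (−1.46, SE 0.37, adjusted p = 0.0338), 2 calls where 0.313% of all gene tests were called. The Cnih3 call was lost without control mouse 28, 34, 71, 75, 240 or 244 (adjusted p 0.0505 to 0.124). Between day 5 and day 10 there were 14 calls, where 3.24% were called, including Gria3 in ocular and lumbar neurons, Grm3 in ocular neurons and Grm5 in facial and red nucleus neurons. Only 4 of the 14 held in each fit without 1 mouse: ocular Grm3 and lumbar Gria2, Gria3 and Cnih3. The ocular Gria3 call was lost in 11 of 34 such fits (adjusted p up to 0.156), facial Grm5 in 5 (up to 0.203) and red nucleus Grm5 in 2 (up to 0.0853). The comparisons of days 2 and 5 and of days 5 and 10 share the day 5 mice. A missing early call does not date a change. Without one, red nucleus Grin2b had control means of 90.8, 47.4 and 43.1 RPKM at days 2, 5 and 10. Hypoglossal Cnih3 likewise had 16.3, 5.21 and 3.21, whereas ocular Gria3 had 41.3, 40.9 and 63.3.

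In SMA mice the same contrast of day 10 with day 2, added after seeing the data, used separate animals. There too the library numbers of day 10 all lay above those of day 2. All 35 changes called in controls had the same sign there and 26 were called. The matching shares over all genes called in controls are not given here, so these counts do not mark the members out. In all, 42 calls were made, where 7.39% of all gene tests were called. Lumbar neurons had 2 rises and 13 falls among 28 members, and vagus neurons 0 and 3 among 29. Lumbar Cnih3 differed by −2.39 (adjusted p = 2.68e-06), lumbar Gria3 by 1.10 (8.02e-06) and lumbar Gria2 by −1.16 (3.5e-08). The 9 that were not called in SMA mice were Grin1, Grm5 and Grin2a in ocular, Cnih3 and Gria3 in facial, Neto2 in hypoglossal, and Gria3, Gria1 and Grin1 in red nucleus neurons. In vagus neurons, where controls had no call, Gria2 (−1.09, SE 0.20), Grin3a (−1.01, SE 0.21) and Grm5 (−1.34, SE 0.38) fell in SMA mice. Kainate receptor genes called in lumbar controls were also called in other SMA populations: Grik1 in facial (−1.30, adjusted p = 0.0116 in limma) and Grik3 in ocular neurons (−1.39, 0.00815).

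Among the 35 AMPA receptor partners, Cacng4, of the same protein family as stargazin, fell in every population but vagus, by 3.33 (SE 0.38) in red nucleus, 3.02 (SE 0.30) in lumbar, 2.29 (SE 0.44) in hypoglossal, 2.21 (SE 0.32) in ocular and 1.83 (SE 0.28) in facial neurons on the log2 scale. Adarb1, the enzyme that edits the Gria2 transcript, rose in red nucleus (1.44, SE 0.30), lumbar (1.24, SE 0.26), hypoglossal (1.21, SE 0.31) and facial neurons (1.02, SE 0.26). Abhd6, which limits AMPA receptor delivery, rose in ocular (1.74, SE 0.38), red nucleus (1.32, SE 0.36) and lumbar neurons (0.95, SE 0.29). In lumbar neurons 7 of the 35 partners rose and 10 fell, among the latter Gsg1l (−2.16, SE 0.31). The other populations had 0 to 3 rises and 0 to 3 falls each, and vagus had none. Of 24 postsynaptic scaffold genes tested in lumbar neurons 1 rose and 3 fell; that 1 was Iqsec2 (0.99, SE 0.21), which also rose in ocular, facial and red nucleus neurons. Of the genes for neuronal glutamate handling, 2 rose in each population but vagus, among them Got1, and Slc17a8 fell in ocular neurons.

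Oligodendrocyte markers rose over the same days. All 10 passed in ocular neurons, 6 of 9 tested in facial, 7 of 10 in hypoglossal, 9 of 10 in lumbar and 8 of 9 in red nucleus neurons, and none of 7 in vagus, the population in which no member was called. Their summed RPKM went from 20.2 to 52.3 at day 2 to 574 to 1282 at day 10 in lumbar neurons, with Opalin and Ermn at 0 in all day 2 mice. It went from 24.9 to 41.0 to 404 to 588 in ocular neurons, from 18.6 to 33.4 to 349 to 702 in red nucleus, from 42.5 to 114 to 199 to 905 in hypoglossal and from 31.0 to 50.4 to 257.3 to 310 in facial neurons, while vagus had 54.0 to 115.6 and 41.8 to 90. Astrocyte markers had 0 to 4 rises and 0 to 2 falls of 12 in each population. Their sums were higher at day 10 without overlap in red nucleus (642 to 1013 and 1609 to 2142) and in the ocular, facial, hypoglossal and vagus samples, but not in lumbar neurons (1865 to 2207 and 1894 to 2154). The part of these cells in the members' changes was not tested.

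The third comparison set SMA against control at each day, in populations that the study chose for their unequal vulnerability to the disease. No member passed the threshold: 0 of 528 estimates over the 18 contrasts of population and day were called in limma, where 0.129% of all gene tests were called. At an unadjusted p under 0.05 there were 40 (7.58%), against 7.1% of the tests of all genes. The median absolute difference was 0.24 for the members and 0.27 for all genes, with a median SE of 0.32 for the members. The 95% interval of the difference lay within ±1 on the log2 scale for 303 estimates (57.4%), and reached beyond that for the rest. How far the genotype difference changed from day 2 to day 10 was called for 0 members in any population (0.0415% of all gene tests; 11 at an unadjusted p under 0.05, lowest adjusted p 0.421).

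**Figure D5:**
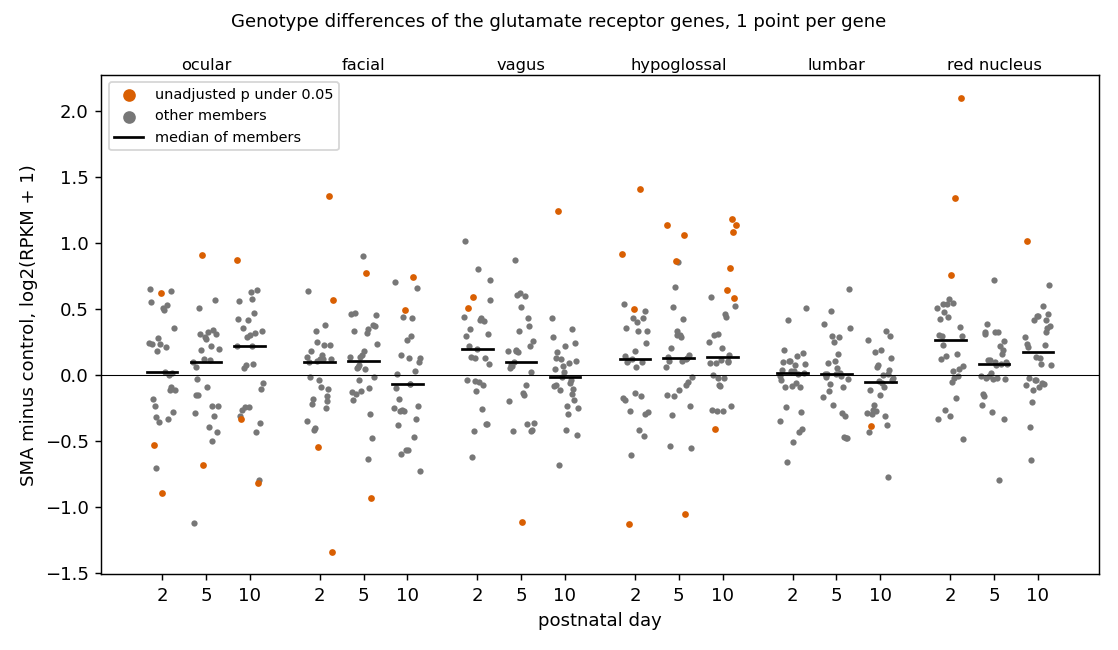
SMA minus control in log2(RPKM + 1) for each tested member (points) in 18 contrasts of population and postnatal day (x axis); orange points have an unadjusted p under 0.05 and bars are the medians of the members. None passed after adjustment, and the medians lie near 0.

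The 3 lowest adjusted p were those of Gria3, Grm2 and Neto1. Ocular Gria3 at day 2 was 37.2, 41.0, 41.6 and 45.6 RPKM in 4 control mice and 24.1, 25.0, 25.5, 27.8, 31.9 and 36 in 6 SMA mice. The genotypes did not overlap, and the difference was −0.54 with an adjusted p of 0.144. Hypoglossal Grm2 at day 2 was 0, 0, 0.25 and 1.15 RPKM in control and 1.10, 1.33, 1.80, 1.92, 4.87 and 5.58 in SMA mice (1.41, adjusted p = 0.225 in limma). Red nucleus Neto1 at day 2 was 0.0482, 0.781, 2.85 and 3.68 in control and 4.73, 7.37, 7.78 and 25.8 in SMA mice (2.10, adjusted p = 0.226 in limma). Grm2 overlapped between genotypes by 1 mouse, and Neto1 did not overlap. In the contrast of Neto1 the oligodendrocyte marker Mbp was called higher in SMA mice (2.22, adjusted p = 0.0351), while the 10 markers summed to 18.6 to 33.4 RPKM in control and 19.1 to 48.3 in SMA mice, and their part in Neto1 was not tested. The other lists held 2 further genotype calls, both higher in SMA mice at day 10: the astrocyte marker Gfap in facial neurons (2.81, adjusted p = 0.00742) and the scaffold gene Homer3 in ocular neurons (1.64, adjusted p = 0.02). Ocular Cnih2 at day 10 was 10.5, 16.2, 24.2 and 37 in control and 30.3, 31.0, 33.6, 45.6 and 48.4 in SMA mice (0.87, adjusted p = 0.26 in limma), and passed only when control mouse 253 was left out (1.15, adjusted p = 0.0296). For the subunit shares at day 10, none of 24 exact permutation tests passed, the lowest adjusted p being 0.571. Here too a single test at its smallest possible p could not have passed the adjustment.

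Pooling was tried after seeing the data, in a fit over all 160 samples with the mouse as a block. Averaged over the 5 motor populations, 1 member was called at day 2 and none at day 5 or 10, where 0.953% of all gene tests at the 3 days were called. It was Grik1, lower in SMA mice by a difference of −0.71 (SE 0.19, adjusted p = 0.0296). Hypoglossal Grik1 at day 2 was 10.5, 10.9, 14.4 and 20.2 RPKM in control mice and 1.90, 3.70, 4.96, 5.96, 9.33 and 13.7 in SMA mice. Means were 4.40 and 2.54 in ocular, 12 and 9.21 in facial, 4.62 and 2.48 in vagus and 8.6 and 5.25 in lumbar neurons for control and SMA mice, with overlap in all 5 populations. In red nucleus the means were 5.05 in control and 7.43 in SMA mice. The call was lost with a pseudocount of 0.1 (adjusted p = 0.0795) and without control mouse 20, 240 or 244 or SMA mouse 207 or 211 (0.0505 to 0.146), and held without any of the other 10 day 2 mice. Averaged over the 3 days within a population, no member was called (0.447% of all gene tests were). Outside lumbar neurons the numbers in the library labels at day 2 did not mix the genotypes: the numbers of all 29 SMA libraries lay above those of 12 control libraries and below those of the other 8. What these numbers stand for is not given, and their part in the Grik1 result and in the other genotype differences at day 2 was not tested.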

How the data were processed

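The values are the RPKM of the authors' deposited table, which has 39410 rows and 168 library columns. Per the submitters' processing notes STAR 2.4.1c was used, and the builds mm10 and hg19 are named without a role; the read counter and annotation are not given in the sources used here, so paralogs and overlapping genes are uncertain. Per the labels, the lumbar control libraries of day 5 were mapped together with reads deposited before.

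Libraries of the same mouse and population were averaged, since mouse numbers in the labels mark 1 animal. Tests used limma 3.58.1 (lmFit and eBayes with a trend; R 4.3.3) on log2(RPKM + 1), so fold changes of low genes are understated. Control populations were compared in 1 fit of 18 groups and days and genotypes in 1 fit of 6 groups per population. P-values were two-sided and adjusted by Benjamini and Hochberg over all genes tested within a contrast, with a threshold of 0.05. Subunit shares were compared by exact permutation over mice with scipy 1.17.1. Genes entered a fit with an RPKM of at least 1 in as many samples as its smallest group. The limma fit was tested on simulated data for lumbar control day 10 against day 2 and ocular controls against the other 5 populations. It was also tested for SMA against control at day 10 in lumbar and ocular neurons. Of genes given a log2 difference of 1, 41%, 90%, 51% and 38% were recovered, in that order. False calls made up 1.63%, 3.57%, 4.79% and 6.72% of the calls. The changed genes were drawn only from those with a mean log2(RPKM + 1) above 2, so recovery of scarcer genes was not tested. No such test is given here for the pooled fit, the F tests or the permutation tests.

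Depth was recovered from the steps of low RPKM values, of which 68.8% to 81.9% per library were whole reads within 1%. No count test was run. Same-mouse samples of different populations had correlated deviations only weakly (median r 0.03 over 150 pairs, across genes, against −0.01 over 568 pairs of other mice).

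The members and the lists were chosen with earlier results of these data known. Of the inhibitory neuron markers, 1 gene is not reported here and stayed out of that list's counts and sums. All members are given by level or count; values per mouse are given for Gria2, Grin1, Grin2a and Grin2b and for members past the threshold, up to 3 in each direction per population contrast, up to 4 in each direction per day contrast and the 3 lowest adjusted p for genotype, and further called members are named beside them. Of the other lists, counts and up to 3 genes per direction are named, plus Cacng3, Cacng5, Abhd6 or Iqsec2 where they recur. Alternatives were a pseudocount of 0.1, no filter, quantile normalization, each library as a sample, ocular libraries of both nuclei only, only the groups compared, the mouse as a replicate block and leaving out each mouse.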

Additional observations from a re-analysis of the deposited data

Results flagged for a closer look

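In groups of 4 or more mice, 57 sets of member values were checked for a mouse that stands far from the others, and 3 were found, where chance gives about 1 in 20. Grin2c in hypoglossal neurons of controls at day 2 was 0.201 RPKM in mouse 244 and 0 in the other 3. Gria3 in red nucleus of controls at day 2 was 29.0 in the same mouse 244 and 14.7 to 16.8 in the others. Neto1 in red nucleus of SMA mice at day 2 was 25.8 RPKM in mouse 211 and 4.73 to 7.78 in the others.

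The change from day 2 to day 10 in controls differed among the 6 populations for Cnih3 (adjusted p = 0.00879) and Grm3 (adjusted p = 0.00646), in limma's F test of the difference itself. Cnih3 fell most in lumbar neurons and was not called in red nucleus. Grm3 was called lower in 4 populations and was not called in vagus or hypoglossal neurons. Its hypoglossal mean nevertheless went from 13.9 to 5.75 RPKM without overlap, while the vagus means were 97.2 and 95.5.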

How the results depend on the processing

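The count of 29 members that differ among populations was the same under all alternatives, the replicate block and each omission of a mouse included, and the calls in the 6 population contrasts stayed within 1.5 times. Of the values of named members under other settings, 452 kept direction and call, 16 kept direction but lost the call, and none reversed; without 1 mouse these were 1736, 52 and 0. Counts for day 10 against day 2 in controls moved more. The ocular count of 7 became 11 with each library as a sample, 4 with ocular libraries of both nuclei only and 4 with only the groups compared (4 to 8 without 1 mouse). With only the groups compared, which leaves fewer samples to estimate the spread, the facial count went from 5 to 3, the hypoglossal from 4 to 1, the red nucleus from 8 to 4, day 5 against day 2 from 2 to 1 and day 10 against day 5 from 14 to 6. Without 1 mouse these were 3 to 6, 1 to 5, 5 to 9, 1 to 3 and 8 to 16. Day 5 against day 2 also had 1 call with a pseudocount of 0.1 and 1 with no filter. The 2 members whose change differed among populations became 1 with a pseudocount of 0.1 and 1 to 3 without 1 mouse, and 3 with the replicate block (mouse). Genotype counts were 0 in all planned settings but those that left out a mouse (0 to 1). The cause of these shifts was not tested otherwise. Apart from the pooled fit, the replicate block could be fitted only for comparisons among populations, since each mouse gives 1 sample per population. With the block, the hypoglossal contrast had 11 members called and the lumbar contrast 18, against 10 and 17. Depth limits the scarce genes most: Grin2a, Grin2c, Grm2 and Shisa6 were at 0 in 10 to 40 samples.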
